A study of Mus musculus with 6 samples.

Results

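The circadian clock and output genes examined here were Dbp, Per1, Per2, Per3, Bhlhb2 (now Bhlhe40), Clock and Nr1d1. All 7 were found on the array by their symbols, of 16675 named genes, and together they had 10 of the 29922 probes. Clock had 3 probes, Per3 had 2, and the other 5 genes had 1 each. The members were chosen on the differences between MCSE and PBS in these same arrays, so those differences are given as a description, without a test.

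The mice were ob/ob animals of the strain B6.V-Lepob/J, which lack functional leptin and become obese and insulin resistant. After a 4 h fast they were given by mouth either MCSE, made by extracting the seeds of Momordica charantia (bitter melon) with water, or PBS (phosphate-buffered saline), followed after 15 min by 1 g/kg of glucose into the peritoneum. Muscle, liver and adipose tissue were taken 4 h after the glucose, and each combination of tissue and treatment had 1 one-colour array, 6 in all. The labels used here state neither the age and sex of the mice, nor whether RNA was pooled, nor the time of day at which tissue was taken, a condition on which transcripts of the clock depend.

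The clock is a feedback loop of transcription that runs in nearly every cell with a period of about a day. CLOCK and its partner BMAL1 (gene Arntl) bind E-boxes and activate the Per and Cry genes, whose proteins then repress CLOCK and BMAL1. A second loop runs through NR1D1 (REV-ERB alpha), which represses Arntl. Output factors such as DBP, which binds D-boxes, carry the rhythm to metabolic genes. In liver, muscle and fat, feeding, glucocorticoids and temperature act on the phase of the loop, and Per1, Per2 and Bhlhe40 can also respond quickly to such signals.

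Promoter sequence is shown for 3 members whose windows hold a binding motif of the loop, because Dbp, the gene with the steepest difference in muscle, encodes a D-box factor and Per3, the gene with the steepest difference on the liver-labelled arrays, carries D-boxes next to its start. Windows of 300 bases (250 before the gene start and 50 after it) from RefSeq, build GRCm38.p6, were found for Dbp, Per1, Per3, Clock and Nr1d1, 5 of the 7 genes, with 8 windows in all. The 250 bases before the start are printed 5′ to 3′. Capitals mark D-boxes (TTATGTAA) in Per3, an E-box (CACGTG) and a nuclear receptor hexamer (AGGTCA, here on the opposite strand) in Per1, and an E′-box (CACGTT, here on the opposite strand) in Nr1d1.
Per3, chr4:151044666-151044915, minus strand: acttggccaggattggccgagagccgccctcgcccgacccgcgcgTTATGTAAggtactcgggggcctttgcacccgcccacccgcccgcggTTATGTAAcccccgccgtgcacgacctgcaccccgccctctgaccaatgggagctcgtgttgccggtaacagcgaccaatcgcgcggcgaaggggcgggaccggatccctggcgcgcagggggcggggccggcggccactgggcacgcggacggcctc
Per1, chr11:69098699-69098948, plus strand: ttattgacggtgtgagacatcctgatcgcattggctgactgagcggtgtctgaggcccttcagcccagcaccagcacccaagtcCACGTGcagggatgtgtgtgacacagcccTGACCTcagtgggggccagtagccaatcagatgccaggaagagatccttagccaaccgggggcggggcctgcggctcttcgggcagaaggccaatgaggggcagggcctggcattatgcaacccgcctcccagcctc
Nr1d1, chr11:98775378-98775627, minus strand: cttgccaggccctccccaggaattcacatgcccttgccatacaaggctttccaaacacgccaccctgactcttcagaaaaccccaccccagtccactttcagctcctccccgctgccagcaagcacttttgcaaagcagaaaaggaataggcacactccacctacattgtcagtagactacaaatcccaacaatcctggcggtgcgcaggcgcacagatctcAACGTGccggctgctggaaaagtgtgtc

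Both strands were searched for these 4 motifs and for the CRE (TGACGTCA). No 2 matches overlapped. The D-boxes of Per3 began 205 and 158 bases before its start, and 0.938% of all 32851 promoter windows held a D-box. An E-box was found in 7.15% of the windows, and that of Per1 began 166 bases before the start. The E′-box, held by 4.68% of windows, began 28 bases before the start of Nr1d1. The hexamer was common, at 16.3% of windows, and also occurred in 1 of the 3 Clock windows. The CRE was held by 1.79% of all windows and by 0 of these 8. A match is a description of letters and was not tested as a site.

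**Figure D1:**
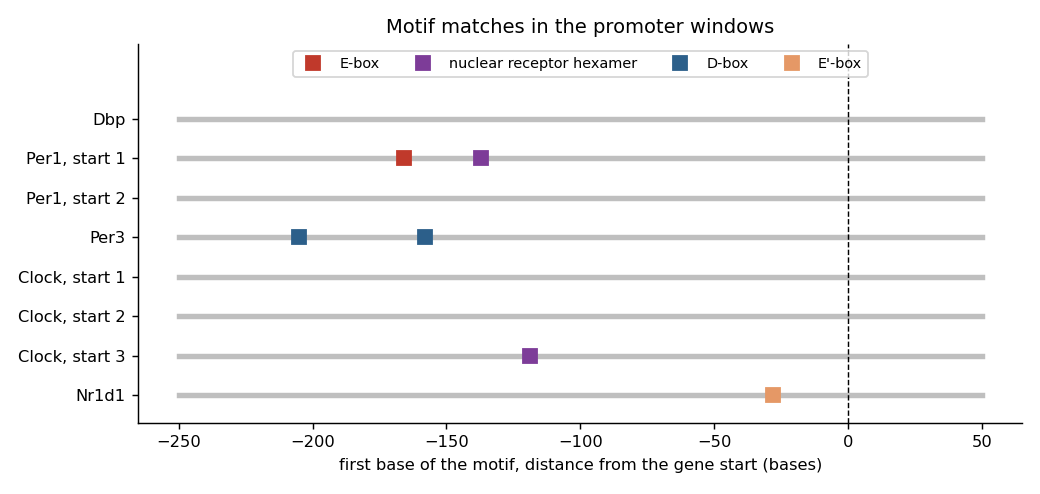
Motif matches in the 8 promoter windows of 5 genes, by distance of the first base of the motif from the gene start (x axis, in bases, dashed line at the start); each grey bar is 1 window. The pair of D-boxes in Per3 began 205 and 158 bases before the start, and the Dbp window held none of the motifs.

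The arrays had been brought by the authors to a common distribution of intensities, with a median log2 intensity of 8.95 over all probes. The arrays labelled MCSE liver and MCSE adipose were nearly the same, with a Pearson correlation of 0.982 over all probes, and the PBS adipose array stood apart from the other 5, with correlations of 0.312 to 0.521. The muscle arrays carried all 7 fast-fibre markers above the all-probe median, with medians of 15.87 (MCSE) and 15.96 (PBS). The liver-labelled arrays carried hepatocyte markers (medians of 12.30 with MCSE and 12.80 with PBS), but also adipocyte markers (15.12 and 14.81) and kidney markers (14.27 and 12.47), as did the array labelled MCSE adipose (12.34, 15.13 and 14.17). Adipocyte markers were also present in muscle (12.91 and 12.86). Their median was 9.36 on the PBS adipose array, where 14 of 32 proteasome genes, which every cell uses, were at or above the array median, against 30 or 31 on each other array. Liver and adipose are therefore used below as labels only. In bulk tissue, fewer cells of a type and less RNA per cell cannot be told apart.

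A probe counted as measured on a pair of arrays when 1 or both of its values reached the all-probe median, and all 10 member probes met this on every pair. Differences are log2 MCSE minus PBS, and 2-fold was taken as the limit for higher or lower. With 1 array per group no difference has a replicate check. As a gauge of technical error, the differences of 2 measured probes for the same gene scattered, and the SD this gives for a single probe was 0.52 for muscle (1504 genes), 0.61 for the liver label (1653 genes) and 1.74 for the adipose label (2068 genes). It is called the SD per probe below.

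In muscle, Dbp was the only member past 2-fold, and it was lower with MCSE. Per2 was lower by less than 2-fold, Nr1d1 and 1 Per3 probe were higher by less than 2-fold, and the remaining 6 probes stayed within the SD per probe. On the liver-labelled arrays Per3, Bhlhb2, Clock and Nr1d1 each had 1 probe more than 2-fold higher with MCSE, and no member was 2-fold lower. Thus 0 of 10 probes were 2-fold higher and 1 was 2-fold lower in muscle, where 4.41% of 16073 measured probes were higher and 2.02% lower. On the liver-labelled pair 4 of 10 probes were higher and 0 lower, where 8.48% of 16880 measured probes were higher and 6.37% lower. The median difference of the 10 probes was -0.13 in muscle and 0.58 on the liver-labelled pair, beside -0.042 and -0.038 for all measured probes. Since these contrasts chose the members, nothing is read from the shares.

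**Figure D2:**
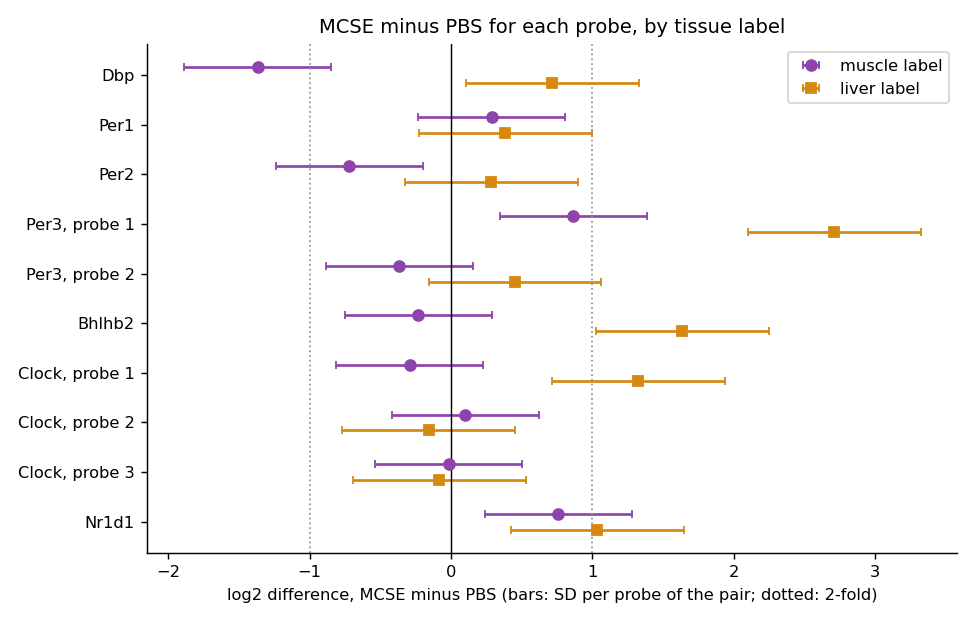
Log2 difference, MCSE minus PBS (x axis), for each of the 10 probes (rows) on the muscle pair (circles) and the liver-labelled pair (squares); bars are the SD per probe of the pair (0.52 and 0.61), and dotted lines mark 2-fold. Dbp is past the line to the left in muscle, and Per3 probe 1, Bhlhb2, Clock probe 1 and Nr1d1 are past the line to the right on the liver-labelled pair.

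Clock encodes the activating partner of BMAL1, and its 3 probes disagreed. Probe 1 (mMC003808) lay at log2 intensities of 10.94 with MCSE and 11.23 with PBS in muscle, and at 11.49 with MCSE and 10.16 with PBS on the liver-labelled arrays. The muscle difference of -0.29 was within the SD per probe, while the liver-labelled difference of 1.32 was past 2-fold. Probe 2 (mMR026549) lay at 9.70 with MCSE and 9.60 with PBS in muscle, and at 10.53 with MCSE and 10.69 with PBS on the liver-labelled arrays. Probe 3 (mMC022282) lay at 10.32 with MCSE and 10.34 with PBS in muscle, and at 9.05 with MCSE and 9.13 with PBS on the liver-labelled arrays. Neither of these probes differed between treatments by more than 0.16 in size on either pair. The difference of Clock on the liver-labelled arrays thus rested on 1 of 3 probes, and over the 3 it averaged 0.36. Which part of the transcript each probe reads was not used here.

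Per1, Per2 and Per3 encode the PERIOD proteins, which enter the complex that represses CLOCK and BMAL1. Per1 lay at 9.73 with MCSE and 9.45 with PBS in muscle, and at 9.89 with MCSE and 9.51 with PBS on the liver-labelled arrays. Its differences of 0.29 and 0.38 were within the SD per probe of either pair. Over the 5 arrays other than PBS adipose it spanned only 0.45 on the log2 scale, the narrowest range of the 10 probes. Per2 lay at 9.65 with MCSE and 10.37 with PBS in muscle, a difference of -0.72 that exceeded the SD per probe. On the liver-labelled arrays Per2 lay at 11.01 with MCSE and 10.73 with PBS, a difference of 0.29 that did not exceed it.

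Per3 had the widest difference of any member on the liver-labelled pair, on 1 of its 2 probes. In muscle the widest difference was that of Dbp. On the adipose-labelled pair Bhlhb2, Clock probe 1 and Dbp differed by more than Per3 did on the liver-labelled pair. Probe 1 (mMC016897) lay at 10.70 on the MCSE liver-labelled array and 7.99 on the PBS liver-labelled array, a difference of 2.71, or 6.55-fold. The PBS value stood at the 14.0 percentile of its array, among the dim probes, where background can make up much of a signal. In muscle the same probe lay at 9.75 with MCSE and 8.88 with PBS, a difference of 0.86. Probe 2 (mMC000930) stayed near the median of all probes on all 6 arrays, between 8.60 and 9.49. Its difference was 0.45 on the liver-labelled pair and -0.37 in muscle, both within the SD per probe. The 2 probes of Per3 therefore pointed the same way on the liver-labelled pair, with unequal size, and opposite ways in muscle.

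Bhlhb2 encodes a repressor that competes for E-boxes with CLOCK and BMAL1. It lay at 11.40 with MCSE and 11.63 with PBS in muscle, and at 11.89 with MCSE and 10.25 with PBS on the liver-labelled arrays. The difference on the liver-labelled pair was 1.64, or 3.11-fold. The muscle arrays, the MCSE liver-labelled array and the MCSE adipose array all lay between 11.40 and 12.01. The PBS liver-labelled array lay 1.15 below the next lowest of those arrays. The MCSE adipose array nearly repeats the MCSE liver-labelled array, and muscle is another tissue. Which array of the liver-labelled pair departed was not tested. Nr1d1 lay at 11.15 with MCSE and 10.39 with PBS in muscle, and at 10.83 with MCSE and 9.79 with PBS on the liver-labelled arrays. It was higher with MCSE by more than the SD per probe on both pairs, by 0.76 in muscle and 1.04 on the liver-labelled arrays (1.69-fold and 2.05-fold). Of the 10 probes, only Per3 probe 1 did the same, and Nr1d1 has a single probe that no other can be set beside.

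Dbp, the D-box output factor, was lower with MCSE in muscle and higher with MCSE on the liver-labelled arrays. In muscle it lay at 10.51 with MCSE and 11.88 with PBS, a difference of -1.37, so that the PBS value was 2.58-fold the MCSE value. On the liver-labelled arrays it lay at 11.18 with MCSE and 10.46 with PBS, a difference of 0.72. The gap between these differences, muscle minus liver label, was -2.09, the widest of the 10 probes. Because the gap has no replicate, it was not tested. The highest of its 6 values was that of the PBS muscle array, and the MCSE adipose array (11.83) came next.

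**Figure D3:**
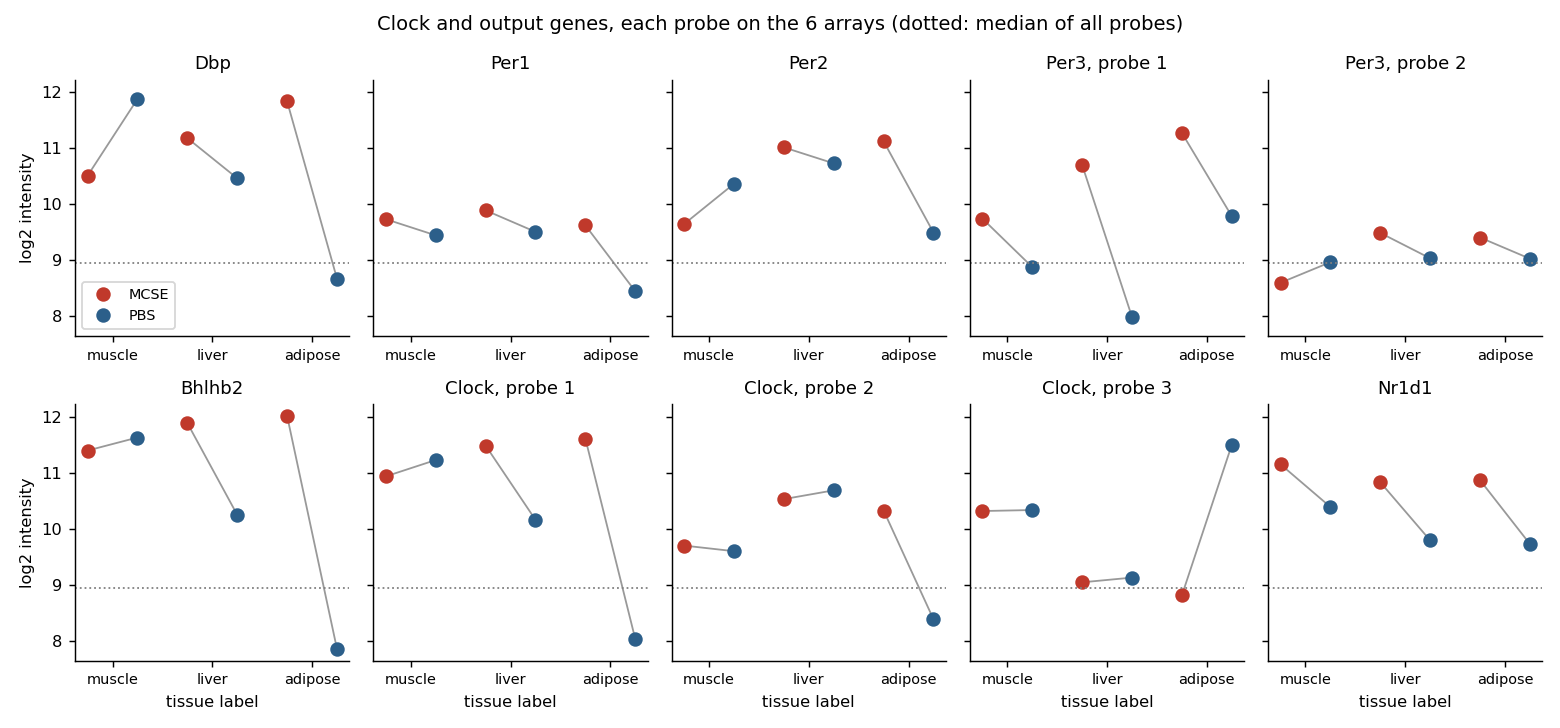
Log2 intensity (y axis) of each of the 10 probes on the 6 arrays, by tissue label (x axis), with MCSE left of PBS and a grey line joining each pair; the dotted line is the median of all probes (8.95). Dbp is highest on the PBS muscle array (11.88), and Per3 probe 1 is lowest on the PBS liver-labelled array (7.99).

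Of the 10 probes, 5 were lowest on the PBS liver-labelled array among the 5 arrays other than PBS adipose (Dbp, Per3 probe 1, Bhlhb2, Clock probe 1 and Nr1d1). The same held for 25.3% of 19315 probes that reached the median on any of these arrays. All 4 probes past 2-fold on the liver-labelled pair were among them, but being 2-fold higher with MCSE there already favours a low PBS value. The like share among all probes 2-fold higher on that pair was not counted. Of 1432 probes that were 2-fold higher with MCSE on that pair, 683 (47.7%) had a PBS liver-labelled value 2-fold or more under those of the muscle arrays, the MCSE liver-labelled array and the MCSE adipose array alike. Bhlhb2 was the 1 member probe of this kind. Within the liver-labelled pair, 8 of 10 member probes lay above 0, where 47.8% of all measured probes did. In muscle 4 of 10 lay above 0, beside 45.9% of all measured probes. Because differences between MCSE and PBS chose the members, nothing is read from these member counts. The MCSE adipose array was nearly the same as the MCSE liver-labelled array, so it adds little as a reference.

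Summed intensities of some marker lists differed between treatments, and the genes of a list did not all differ alike. On the liver-labelled arrays all 7 kidney markers were above the all-probe median with either treatment, with a summed intensity of 186581 with MCSE and 113030 with PBS. Slow and cardiac muscle markers summed to 3210 with MCSE and 13075 with PBS, with 3 and 4 of 6 at or above the median. Myl2 (9.13 and 10.59), Myl3 (9.14 and 12.03) and Actc1 (9.78 and 12.55) were lower with MCSE. Tnni1 (8.55 and 8.73), Tnnt1 (8.90 and 9.13) and Myh7 (8.48 and 8.54) differed little. Hepatocyte markers summed to 73410 with MCSE and 91629 with PBS on these arrays, and adipocyte markers to 226952 and 191764. Alas2, the only erythrocyte marker of 3 found on the array, lay at 7.54 with MCSE and 11.89 with PBS. In muscle, slow and cardiac muscle markers summed to 152553 with MCSE and 52162 with PBS (6 of 6 at or above the median on each). Tnni1 (13.74 and 9.90), Tnnt1 (14.61 and 10.77) and Myh7 (15.46 and 11.92) were much higher with MCSE. Myl3 (14.97 and 13.76) and Myl2 (14.52 and 13.90) were higher by less, and Actc1 (13.69 and 14.00) was lower. Kidney markers in muscle summed to 14521 with MCSE and 6947 with PBS (6 and 4 of 7). Kap weighed most on that kidney sum, at 12.81 with MCSE and 9.61 with PBS. Napsa was lower with MCSE (11.73 and 11.92), and the other kidney markers were higher by less than Kap. Hepatocyte markers in muscle summed to 6709 with MCSE and 10649 with PBS (3 and 4 of 6). Alb weighed most on that difference, at 10.44 with MCSE and 12.35 with PBS. Ttr, Fgb and Tat were also lower with MCSE, while Apoa1 (11.62 and 11.54) and Ahsg (10.30 and 9.88) were higher. Macrophage markers summed to 30429 with MCSE and 30538 with PBS on the liver-labelled arrays, and to 7292 and 5256 in muscle. No marker was listed at 0. The part of these tissues in the differences of the clock genes was not tested.

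On the adipose-labelled pair, 8 of 10 probes were 2-fold higher with MCSE and 1 was lower, where 33.6% of all 20712 measured probes were higher and 38.1% lower. Differences past 2-fold were thus common on this pair among all probes. The MCSE adipose array gave Dbp at 11.83, Per1 at 9.62, Per2 at 11.12, Per3 probe 1 at 11.27, Bhlhb2 at 12.01, Clock probe 1 at 11.61 and Nr1d1 at 10.87. The 10 probes differed from their values on the MCSE liver-labelled array by -0.27 (Per1) to 0.65 (Dbp). The PBS adipose array gave Dbp at 8.67, Per1 at 8.45, Per2 at 9.50, Per3 probe 1 at 9.79, Bhlhb2 at 7.86, Clock probe 1 at 8.04 and Nr1d1 at 9.73. It was the lowest of the 6 arrays for 7 of 10 member probes, where 33.9% of 22132 probes that reached the median on any array were lowest there. Clock probe 3 was the exception in direction, at 8.81 with MCSE and 11.50 with PBS.

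The contrast of muscle with liver-labelled arrays was not used to choose the members and was tested with limma, with the MCSE and PBS array of each label as its 2 samples. The spread within a label therefore holds any effect of MCSE, and separate mice or cultures per array are not stated. Of the 10 member probes, 1 passed an adjusted p under 0.05 and 2-fold, as higher in muscle, and 0 passed as lower (3 of 10 at an unadjusted p under 0.05, beside 40.1% of all tested probes), where 8.62% of 19055 tested probes passed as higher in muscle and 12.9% as lower. The probe that passed was Clock probe 3, at 10.33 ± 0.013 in muscle and 9.09 ± 0.059 on the liver-labelled arrays (SD, n = 2 each), a difference of 1.24 ± 0.27 (SE) with an adjusted p from limma of 0.0259. Clock probe 2 went the other way, at 9.65 ± 0.071 in muscle and 10.61 ± 0.11 on the liver-labelled arrays, a difference of -0.96 ± 0.27 (SE) with an adjusted p from limma of 0.0543. Clock probe 1 differed by 0.26 ± 0.47 (SE), with an adjusted p from limma of 0.698. The 3 probes of Clock thus gave no single direction between the tissue labels.

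Among the other genes, Per2 lay lower on both muscle arrays than on both liver-labelled arrays, at 10.01 ± 0.51 against 10.87 ± 0.20 on the liver label (SD, n = 2 each), but the difference of -0.87 ± 0.35 (SE) did not pass, with an adjusted p from limma of 0.118. Dbp differed by 0.37 ± 0.51 (SE), Per1 by -0.11 ± 0.30, Bhlhb2 by 0.44 ± 0.54 and Nr1d1 by 0.46 ± 0.45, with adjusted p-values from limma between 0.470 and 0.802. For these 4 genes the muscle and liver-labelled arrays overlapped. Per3 probe 1 differed by -0.035 ± 0.85 (SE), the widest error of the 10, and its liver-labelled arrays lay 2.71 apart. Per3 probe 2 differed by -0.48 ± 0.32 (SE), with an adjusted p from limma of 0.292. Over the 10 probes, both muscle arrays lay above both liver-labelled arrays for 1, below them for 3 and overlapped with them for 6, where 34.7% of all tested probes lay above and 35.4% below. An interval that includes 0 does not show that the tissues express these genes alike.

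The 1 call depended on the arrays that were fitted. Clock probe 3 lost it without the MCSE muscle array (adjusted p from limma of 0.162), without the PBS muscle array (0.145) and in a fit of all 6 arrays (0.683), while the difference itself lay between 1.20 and 1.28 in all fits that left out 1 array. Without the MCSE liver-labelled array 2 further member probes passed, Bhlhb2 as higher in muscle (1.26, adjusted p from limma of 0.0360) and Clock probe 2 as lower (-1.04, adjusted p from limma of 0.0464).

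**Figure D4:**
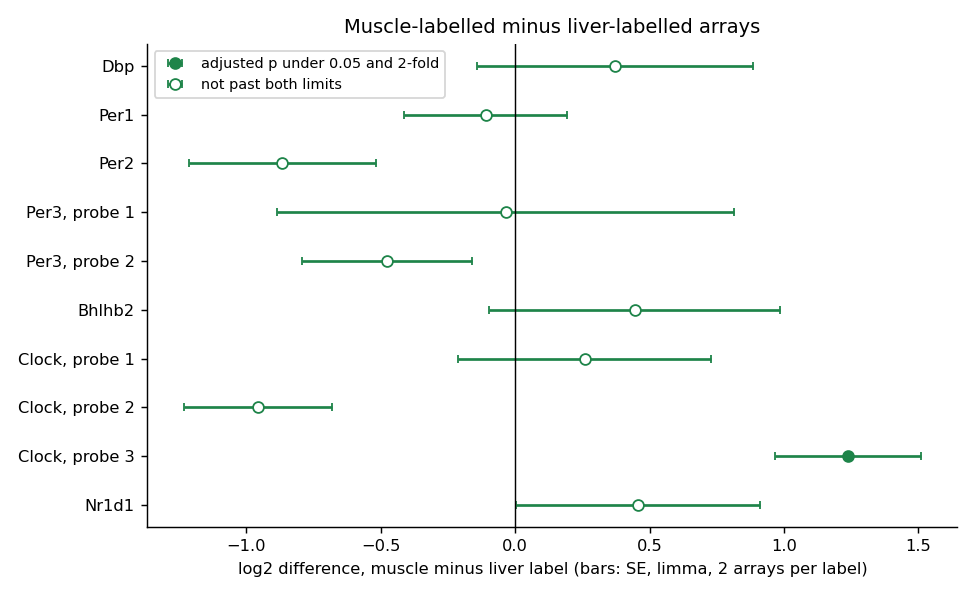
Log2 difference, muscle minus liver-labelled arrays (x axis), for each of the 10 probes (rows), from limma on 2 arrays per label; bars are SE, and a filled point passed an adjusted p under 0.05 and 2-fold. Clock probe 3 (1.24) passed and Clock probe 2 (-0.96) lies on the other side of 0.

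Other genes of the clock pathway were taken from 4 lists of 61 genes, of which 56 were on the array, and each was read on its brightest probe. In muscle 1 of 49 measured genes was 2-fold higher with MCSE and 1 lower, where 3.9% of 10711 measured genes were higher and 1.88% lower. On the liver-labelled pair 7 of 48 were higher and 2 lower, where 8.27% of 11342 measured genes were higher and 6.01% lower. The median difference of the lists was -0.29 in muscle, beside -0.051 for all measured genes, and 41 of 49 genes lay below 0 against 5923 of 10711. On the liver-labelled pair it was 0.33, beside -0.015, and 33 of 48 genes lay above 0 against 5562 of 11342. The lists were written with earlier results of these data known and are no independent evidence of a direction.

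Among partners and repressors, 7 of 12 genes were measured in muscle and 4 on the liver-labelled pair. Arntl, which encodes BMAL1, lay at 9.47 with MCSE and 9.82 with PBS in muscle, and at 8.73 with MCSE and 7.82 with PBS on the liver-labelled arrays, where it was not measured by the rule. Cry1 and Cry2, the partners of the PERIOD proteins, differed by -0.11 and -0.44 in muscle and by -0.06 and -0.05 on the liver-labelled pair. Nr1d2, the paralogue of Nr1d1, lay at 12.62 with MCSE and 13.07 with PBS in muscle and at 12.25 with MCSE and 11.69 with PBS on the liver-labelled arrays. Its muscle difference of -0.44 had the sign opposite to that of Nr1d1. A dimmer second probe of Nr1d2 differed by 0.17 in muscle and 1.67 on the liver-labelled pair. Rorb, a nuclear receptor of the ROR family, lay at 9.75 with MCSE and 8.23 with PBS in muscle, a difference of 1.52 with a PBS value below the median of all probes. Npas2, a CLOCK paralogue, and Bhlhb3, a Bhlhb2 paralogue, were below the median of all probes on the muscle and liver-labelled arrays.

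Among the output genes, Tef and Hlf, which belong with Dbp to the PAR-bZIP family, did not share its muscle difference past the SD per probe. Tef lay at 13.32 with MCSE and 13.68 with PBS in muscle (-0.36) and at 12.77 with MCSE and 13.22 with PBS on the liver-labelled arrays (-0.45), all within the SD per probe. Hlf differed by 0.21 in muscle and by 0.83 on the liver-labelled pair. Of 14 measured output genes 0 were 2-fold higher or lower in muscle. On the liver-labelled pair Tspo, a mitochondrial outer membrane protein, was 1.36 higher and Cyp7a1, the rate-limiting enzyme of bile acid synthesis, was 1.08 lower on the log2 scale, the only 2 of 15 past 2-fold.

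Of the kinases, ligases and chromatin partners, 1 of 15 measured genes was 2-fold lower in muscle and 3 of 16 were 2-fold higher on the liver-labelled pair. Fbxw11, a subunit of the ubiquitin ligase that marks PERIOD proteins for degradation, lay at 11.04 with MCSE and 12.49 with PBS in muscle and at 11.75 with MCSE and 10.61 with PBS on the liver-labelled arrays. Like Dbp, it was lower in muscle and higher on the liver-labelled pair, each by more than the SD per probe. So were Nfil3 (-0.71 and 0.84), Usp2 (-0.70 and 0.65), Jarid1a (-0.54 and 0.76) and Ppargc1a (-0.65 and 1.74), making 5 of 46 list genes measured on both pairs, beside 1.49% of 9578 such genes in all. These genes were picked out after their values were seen, so nothing is read from that share. A dimmer second probe of Ppargc1a differed by -0.52 in muscle and by 0.56 on the liver-labelled pair, the latter within the SD per probe. Csnk2a1, a catalytic subunit of casein kinase 2, and Prkaa1, a catalytic subunit of AMP-activated kinase, were 1.27 and 1.16 higher on the liver-labelled pair and differed by -0.07 and 0.36 in muscle. Among 13 input genes 0 passed 2-fold in muscle. On the liver-labelled pair Ppargc1a (1.74), Klf15 (1.65) and Sgk1 (1.28) were higher and Crtc1 (-1.19) was lower. A dimmer second probe of Sgk1 differed by 0.08 on that pair, where it was not measured by the rule. Ppargc1a encodes a coactivator of nuclear receptors, Klf15 a Krüppel-like transcription factor, Sgk1 a kinase and Crtc1 a coactivator of CREB. The median of all 13 was 0.016 on that pair.

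**Figure D5:**
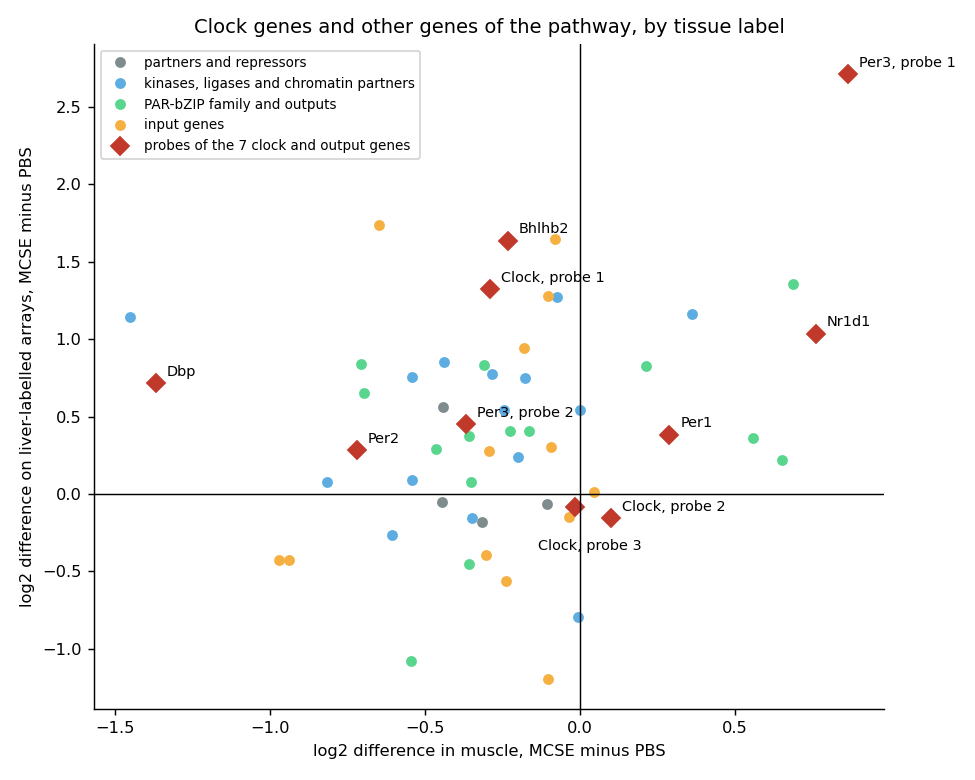
Log2 difference, MCSE minus PBS, in muscle (x axis) and on the liver-labelled arrays (y axis) for the 10 member probes (diamonds, named) and for pathway genes measured on both pairs (circles, coloured by list). Dbp lies at -1.37 and 0.72, and Per3 probe 1 at 0.86 and 2.71.

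In the muscle and liver-label contrast with limma, 2 of 51 tested pathway genes passed as higher in muscle and 4 as lower, beside 8.62% and 12.9% of all tested probes. These shares count every tested probe, whereas each pathway gene was read on its brightest probe, so they are not like for like. Usp2, a deubiquitinase, was 2.34 ± 0.38 (SE) higher in muscle (adjusted p from limma of 0.0110), and Rora, a nuclear receptor that activates Arntl, was 1.30 ± 0.29 higher with an adjusted p from limma of 0.0269. Gys2, the liver glycogen synthase, was at -2.16 ± 0.27, Por, the electron donor of cytochromes P450, at -2.08 ± 0.31, Wee1, a cell cycle kinase, at -1.95 ± 0.31 and Tspo at -2.18 ± 0.51, with adjusted p-values from limma between 0.00541 and 0.0309. Arntl, at 1.37 ± 0.39 higher in muscle, had an adjusted p from limma of 0.0521.

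Likeness between probes was measured as the root mean square of the log2 difference over the 6 arrays, after each probe's own mean was subtracted, and is a description in which the PBS adipose array weighs heavily. The closest pair of member genes was Bhlhb2 and Clock probe 1, at 0.23. Per1 and Nr1d1 followed at 0.37. Among 16628 probes of other named genes that reached the median on any array, Ube2j1, a ubiquitin-conjugating enzyme, was closest to Dbp at 0.15, and Mrpl36 followed at 0.23. Ube2j1 lay at 10.07 with MCSE and 11.16 with PBS in muscle, and at 10.37 with MCSE and 10.05 with PBS on the liver-labelled arrays. It was picked for its likeness to Dbp over these same arrays, so nothing is read from its lower muscle value with MCSE. Slc37a4, the glucose 6-phosphate transporter, was closest both to Clock probe 1 (0.066) and to Bhlhb2 (0.19). Cnot2 was next for Clock probe 1 (0.15), and Clock probe 1 itself was next for Bhlhb2. For Per1 the closest were B4galt1 (0.036) and Usp3 (0.065), for Per2 Ppfia1 (0.084) and Gnaq (0.12), and for Nr1d1 4930588N13Rik and Hbs1l (0.11 and 0.12). Per3 probe 1 had no close neighbour, with Sh3pxd2a at 0.30 and Bcl11b at 0.31.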

How the data were processed

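Total RNA (5 µg) was amplified and labelled with Cy5, per the labels' protocols. The authors deposited normalized intensities on a linear scale for 29922 probes and 6 arrays. The submitters' processing notes name limma, with no role; background correction and build are not given in the sources used here. Sorted values of the columns differed from their median by at most 0.0385 (log2), so the arrays had been brought to 1 distribution. Precision is limited by how few arrays there are.

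The platform annotation gave 21020 probes 1 symbol and 8902 none (0 had several). Intensities were taken to log2 as deposited. List genes were matched by symbol or RefSeq synonym, and genes of the lists were read on the brightest probe (highest mean over 6 arrays). Text names all member probes, pathway genes past 2-fold or partnering a member, fitted pathway calls, and the 2 nearest probes per member; Nfil3 and Jarid1a were named after their values were seen. The members and lists were chosen with earlier results of these data known.

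Tissue labels were compared with limma 3.58.1 (R 4.3.3, lmFit, eBayes, 4 arrays, probes at or above the median on at least 1, Benjamini-Hochberg). The fit was also run on simulated data. Those had no treatment difference within a label, unlike these arrays, so that run does not check this design. Python 3.11.15, numpy 2.4.6, pandas 2.3.3, statsmodels 0.14.6 and matplotlib 3.10.9 were used. Alternatives were a floor at the 5th percentile, 32 added before log2, quantile normalization, centring, lowess, other filters and thresholds, gene means, a treatment term, an eBayes trend, all 6 arrays, and each array left out.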

Additional observations from a re-analysis of the deposited data

Results flagged for a closer look

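Dbp was the only member whose differences, each larger than the SD per probe of its pair, pointed opposite ways on the 2 pairs. Its log2 difference, MCSE minus PBS, was -1.37 for muscle and 0.72 for the liver label. The difference between the pairs was not tested, since each has 1 array per treatment. Of 9578 genes measured on both pairs, each on its brightest probe, 1.49% were lower in muscle and higher on the liver label by this rule. The opposite direction was not counted. Dbp has a single probe, and the SD per probe holds no spread between mice. Because these contrasts chose the members, nothing is read from Dbp being the only one.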

How the results depend on the processing

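The 100 recomputed probe differences between MCSE and PBS all stayed within the SD per probe of the reported values under the floor, the added 32, quantile normalization, centring and lowess. Counts past 2-fold kept their values in these settings and under other filters. Some settings could change little. The floor of 214 lay under every member value on these pairs, the lowest being 255 (Per3 probe 1, PBS liver label). The arrays already shared 1 distribution. Centring subtracted the median difference of the pair from all its probes, -0.042 in muscle and -0.038 on the liver label. None of the settings bears on the spread between mice or arrays, with 1 array per group. At 1.5-fold, 2 member probes were higher and 2 lower in muscle (10.4% and 8.13% of all measured probes), and 5 were higher and 0 lower on the liver-labelled pair (19.7% and 19.6%). With probes of a gene averaged, 3 member genes in place of 4 were 2-fold higher on the liver-labelled pair. In the contrast of muscle with liver label, the member probes called as higher numbered 0 with all 6 arrays fitted, where 50 of all probes were higher in muscle and 0 lower (1519 at an unadjusted p under 0.05, limma). With treatment as a term 3023 of all probes were higher. Clock probe 3 lost its call with all 6 arrays at an unchanged difference of 1.24. Without each array in turn, 0 to 2 member probes were higher and 0 to 1 lower, and of all probes 763 to 2288 were higher and 1052 to 2995 lower, with 763 and 1052 without the MCSE muscle array and 1160 lower without the PBS muscle array. Over the same fits Dbp ranged from -0.31 to 1.06, Per1 from -0.30 to 0.082, Per3 probe 1 from -1.39 to 1.32, Bhlhb2 from -0.37 to 1.26, Clock probe 1 from -0.40 to 0.92 and Nr1d1 from -0.060 to 0.98. With 1 array left in a label, that array is assumed to vary like the other label. The cause of these shifts was not tested. The fit with treatment as a term is the paired one, since it sets each treatment's muscle array beside its liver-labelled array. It left 1 member probe called as higher and 0 as lower, and called 3070 of all probes as lower.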
